A study of Mus musculus with 9 samples.

Results

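The genes described are 10 feedback regulators of mitogen-activated protein kinase (MAPK) signalling, found by their symbols in the gene tables of cultured mouse breast cancer cells, from lines labelled as knockouts of the long noncoding RNA Malat1 and from control cells. All 10 were listed in each of 9 libraries, among 19072 genes listed in at least 1, and all 10 passed the filter on low counts. They are the dual-specificity phosphatases Dusp1, Dusp4, Dusp5 and Dusp6, the Sprouty genes Spry1, Spry2 and Spry4, the Sprouty-related gene Spred1, and the transcription factor genes Etv4 and Etv5. The cells were 4T1-TGL, a derivative of the 4T1 mammary carcinoma line of BALB/c mice, grown in DMEM/F12. There were 3 libraries of a first Malat1 knockout line (KO1), 3 of a second one (KO2) and 3 of cells with genotype WT (Ctrl). The labels name no further allele or agent and do not say how Malat1 was disrupted. Malat1 RNA was nearly absent in KO1 but only reduced in KO2, with values given further on. Each knockout group is 1 line, so its lower Malat1 level and any other difference between that line and Ctrl cannot be told apart. Whether the replicates came from separate cultures is not given in the labels. A p-value here therefore reflects how much libraries of the same group vary, and that variation may be technical. The variation was estimated over the 3 groups together and drawn towards that of other genes.

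Growth factor receptors activate Ras, which switches on the kinases Raf, MEK and ERK in turn. ERK then induces transcripts whose products turn the pathway down: dual-specificity phosphatases remove the activating phosphates from MAP kinases, and Sprouty and Spred proteins hold back the activation of Ras and Raf. Etv4 and Etv5, ETS factors of the PEA3 subfamily, are induced by the same pathway and carry its output to further genes. These transcripts are widely used as a readout of ERK activity in carcinoma cells, but an RNA level is not a measure of kinase activity.

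Total expected counts ran from 30655924 to 35406395 per library. Malat1 was at 0.839%, 0.798% and 0.570% of the Ctrl mean in the KO1 libraries and at 25.8%, 34.6% and 21.2% in the KO2 libraries, against 110%, 87.1% and 103% in the Ctrl libraries. In FPKM, a level per transcript length and library size, 6 epithelial markers summed to 799 to 939 in KO1, 1340 to 1450 in KO2 and 456 to 472 in Ctrl, and Cldn7 was not listed in KO1. Nearly all of it came from the keratins Krt8 and Krt18, while Epcam, at most 0.32 FPKM, and Cdh1, at most 0.08 FPKM, which define epithelial cells, were close to 0 in every library. The sum moved with the groups. Of the defining markers of other cells, Cd3d, Nkg7 and Cd2 were listed in no library, and Ptprc, Adgre1 and Cd3e stayed at or below 0.02 FPKM. In each of the other lists, the sums of some groups overlapped and those of others did not. The 5 fibroblast markers summed to 41.6 to 44.2 FPKM in KO1 and 23.8 to 24.1 FPKM in KO2, against 43.7 to 45.8 FPKM in Ctrl, most of it Pdgfra. The 6 macrophage and neutrophil markers summed to 30.3 to 50.4 FPKM in KO1 and 47 to 50 FPKM in KO2, against 25.1 to 43.4 FPKM in Ctrl. Nearly all of this was S100a8 and Cd68, whose means went opposite ways. Cd68 averaged 28.0 FPKM in KO1 and 10.5 FPKM in KO2, against 14.8 FPKM in Ctrl. S100a8 averaged 13.0 FPKM in KO1 (6.38 to 21.4) and 37.3 FPKM in KO2, against 19.1 FPKM in Ctrl (7.54 to 31.2). The 5 endothelial markers, mostly Eng, summed to 15.4 to 17.8 FPKM in KO1 and 21.5 to 23.7 FPKM in KO2, against 22.9 to 27.4 FPKM in Ctrl. The 5 T and NK cell markers, nearly all Lck, summed to 1.77 to 2.47 FPKM in KO1 and 0.70 to 1.03 FPKM in KO2, against 1.27 to 2.47 FPKM in Ctrl. The part of these marker levels in the results below was not tested. KO2 replicate 2 stood apart from the other KO2 libraries by low levels of several such markers, for example 0.75 FPKM of Lyz2, 0.31 of Col1a2 and 0.28 of Cdh5, against at most 0.03 in the other two. Without that library, each member kept its call in all 3 comparisons and no log2 fold change moved by more than 0.07. In bulk RNA, fewer cells of a type and less RNA per cell cannot be told apart.

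The phosphatase genes were lower in the knockout lines wherever they passed the test. Dusp6, which encodes a cytoplasmic phosphatase specific for ERK, was the most abundant member in Ctrl. It had 47.7, 48.1 and 48.7 FPKM in KO1 and 63.6, 62.9 and 67.0 FPKM in KO2, against 84.5, 89.7 and 85.9 FPKM in Ctrl. The 3 groups did not overlap, KO1 was the lowest, and the libraries of each group lay close together. The log2 fold change was -0.88 ± 0.061 in KO1 (SE, n = 3; 54.4% of Ctrl; edgeR adjusted p = 1.53e-06) and -0.35 ± 0.060 in KO2 (78.5% of Ctrl; edgeR adjusted p = 0.000565). Dusp6 lies on chromosome 10 (99263231 to 99267489, plus strand, GRCm38).

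Dusp5, which encodes a nuclear phosphatase specific for ERK, fell by nearly the same amount in both lines. Its FPKM values were 6.36, 5.85 and 6.15 in KO1 and 5.71, 5.61 and 5.18 in KO2, against 9.83, 10.7 and 10.2 in Ctrl. All knockout libraries lay below all Ctrl libraries. The log2 fold change was -0.77 ± 0.099 in KO1 (SE, n = 3; edgeR adjusted p = 0.000172) and -0.82 ± 0.10 in KO2 (edgeR adjusted p = 4.56e-05). Compared directly, KO2 over KO1 had a log2 fold change of -0.05 ± 0.10 (SE; edgeR adjusted p = 0.717). Dusp5 lies on chromosome 19 (53529145 to 53541809), the chromosome that also carries Malat1. The deposited tables counted it on a model of 1155 bases, whereas the longest GENCODE transcript of the gene has 2473, so its level per length depends on that short model.

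Dusp1, which encodes an early-induced nuclear phosphatase that also acts on the stress kinases JNK and p38, was lower in KO2. It had 8.66, 9.21 and 9.33 FPKM in KO1 and 5.20, 5.94 and 5.55 FPKM in KO2, against 8.51, 10.96 and 10.1 FPKM in Ctrl. The KO1 libraries lay within the range of Ctrl, and the KO2 libraries lay below all others. The log2 fold change was -0.75 ± 0.11 in KO2 (SE, n = 3; edgeR adjusted p = 0.000171) and -0.15 ± 0.11 in KO1 (edgeR adjusted p = 0.314). Dusp1 is on chromosome 17 (26505591 to 26508472, minus strand). Its exons share 11 bases with those of Ergic1 on the opposite strand in GENCODE. Whether the libraries kept strand is not given in the sources used here, so reads of such pairs cannot be told apart. The same holds for 547 bases shared by Dusp5 and 710 shared by Spry1 with a gene on the opposite strand. No library listed either of these opposite genes by its GENCODE symbol, and whether the provider's annotation held them is not known.

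Dusp4, which encodes a nuclear phosphatase of ERK and JNK, was lower in KO1. It had 40.4, 33.3 and 36.6 FPKM in KO1 and 50.1, 43.6 and 50.3 FPKM in KO2, against 42.7, 51.5 and 46.9 FPKM in Ctrl. The KO1 libraries lay below the other 6, while KO2 and Ctrl overlapped. Its log2 fold change was -0.37 ± 0.095 in KO1 (SE, n = 3; edgeR adjusted p = 0.0116) and 0.11 ± 0.094 in KO2 (edgeR adjusted p = 0.332). The gene is on chromosome 8 (34807610 to 34819894), and 2 of the 3 transcript models counted for it were unnamed models of the sequencing provider.

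The RefSeq promoter windows of Dusp6 and Dusp1, from 250 bases before to 50 after the annotated start (GRCm38.p6), are shown because these are the phosphatase genes with the largest fall in KO1 and with a fall called in KO2 alone, and because 1 of them holds a site of the search described further on. Capitals mark that site, a cyclic AMP response element (CRE).
Dusp6 (chr10:99262981-99263280, plus strand): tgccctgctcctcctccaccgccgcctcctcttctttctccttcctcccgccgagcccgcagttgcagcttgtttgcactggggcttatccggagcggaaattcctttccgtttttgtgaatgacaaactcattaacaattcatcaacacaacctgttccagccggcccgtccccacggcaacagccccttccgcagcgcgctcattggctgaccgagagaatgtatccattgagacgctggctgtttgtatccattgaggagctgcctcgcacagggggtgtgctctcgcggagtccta
Dusp1 (chr17:26508423-26508722, minus strand): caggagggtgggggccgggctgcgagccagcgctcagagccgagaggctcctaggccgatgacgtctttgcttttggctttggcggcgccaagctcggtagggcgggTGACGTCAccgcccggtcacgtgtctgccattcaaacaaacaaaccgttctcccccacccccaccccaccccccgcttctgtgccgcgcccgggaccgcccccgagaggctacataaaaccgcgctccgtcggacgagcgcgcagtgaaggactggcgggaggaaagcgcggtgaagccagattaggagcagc

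**Figure D1:**
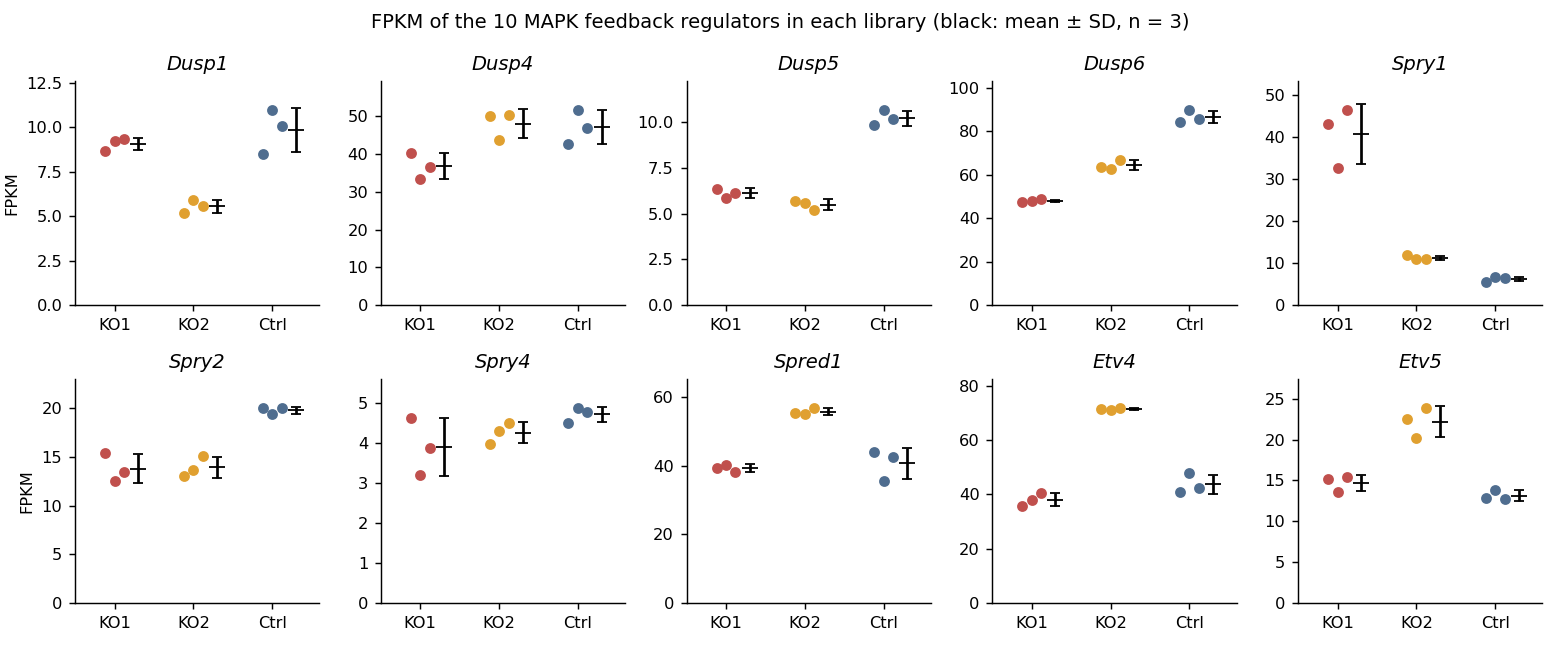
FPKM (vertical axes, linear, from 0) of each member in the libraries of KO1, KO2 and Ctrl; each point is 1 library, and black bars give the mean and SD of 3. Spry1 stands at 32.6 to 46.3 in KO1, above all other libraries, and Etv4 at 71.0 to 71.9 in KO2.

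Spry1 had the largest change of all members. This gene encodes a membrane-associated inhibitor that is induced by receptor tyrosine kinases and restrains Ras-ERK signalling. It had 43.0, 32.6 and 46.3 FPKM in KO1 and 11.9, 11.05 and 11.00 FPKM in KO2, against 5.56, 6.58 and 6.46 FPKM in Ctrl. The 3 groups did not overlap, with KO1 far above KO2 and KO2 above Ctrl. The increase was 6.44-fold in KO1 (log2 fold change 2.69 ± 0.12, SE, n = 3; edgeR adjusted p = 6.18e-08) and 1.93-fold in KO2 (0.95 ± 0.12; edgeR adjusted p = 6.93e-05). The KO1 libraries also spread more, with a coefficient of variation of 17.5% against 8.99% in Ctrl. Spry1 is on chromosome 3 (37639947 to 37644599, plus strand). Its promoter window is shown as that of the member with the largest change; it held none of the motifs searched, so no letter is in capitals.
Spry1 (chr3:37639697-37639996, plus strand): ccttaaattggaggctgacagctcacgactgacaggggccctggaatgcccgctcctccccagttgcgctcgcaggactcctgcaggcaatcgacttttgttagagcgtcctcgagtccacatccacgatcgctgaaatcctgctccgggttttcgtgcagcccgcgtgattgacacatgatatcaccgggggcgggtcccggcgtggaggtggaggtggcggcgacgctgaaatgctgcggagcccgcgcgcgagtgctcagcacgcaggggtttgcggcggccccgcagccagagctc

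Spry2, a paralogue with the same role, changed in the other direction. It had 15.4, 12.6 and 13.5 FPKM in KO1 and 13.0, 13.7 and 15.1 FPKM in KO2, against 20.0, 19.4 and 20.0 FPKM in Ctrl. All 6 knockout libraries lay below the Ctrl libraries, and both lines overlapped. The log2 fold change was -0.55 ± 0.091 in KO1 (SE, n = 3; edgeR adjusted p = 0.000929) and -0.43 ± 0.091 in KO2 (edgeR adjusted p = 0.00214). Spry2 is on chromosome 14 (105891947 to 105896819, minus strand).

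Spred1 encodes a Sprouty-related protein that brings the Ras inhibitor neurofibromin to the membrane. It had 39.4, 40.3 and 38.1 FPKM in KO1 and 55.4, 55.0 and 56.8 FPKM in KO2, against 43.9, 35.6 and 42.4 FPKM in Ctrl. The KO2 libraries lay above all others, and KO1 lay within the range of Ctrl. The log2 fold change was 0.53 ± 0.078 in KO2 (SE, n = 3; edgeR adjusted p = 0.000184) and -0.08 ± 0.078 in KO1 (edgeR adjusted p = 0.466). The gene is on chromosome 2 (117121071 to 117182279).

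Etv4 and Etv5, the transcription factor genes of the group, both rose in KO2. Etv4 had 35.7, 37.9 and 40.6 FPKM in KO1 and 71.5, 71.0 and 71.9 FPKM in KO2, against 41.0, 47.7 and 42.5 FPKM in Ctrl. Etv5 had 15.2, 13.6 and 15.4 FPKM in KO1 and 22.5, 20.2 and 23.9 FPKM in KO2, against 12.8, 13.9 and 12.7 FPKM in Ctrl. For both genes the KO2 libraries lay above the other 6. In KO2 the increase was 1.76-fold for Etv4 (log2 fold change 0.81 ± 0.064, SE, n = 3; edgeR adjusted p = 1.47e-06) and 1.78-fold for Etv5 (0.83 ± 0.085; edgeR adjusted p = 1.10e-05). In KO1 Etv4 was slightly lower, at 85.5% of Ctrl (log2 fold change -0.23 ± 0.064; edgeR adjusted p = 0.0208), and its 3 libraries lay just below the lowest Ctrl library. That call was lost under 5 of 19 alternatives, among them without Ctrl replicate 2 (edgeR adjusted p = 0.0678) and without Ctrl replicate 3 (edgeR adjusted p = 0.0522). Etv5 had a log2 fold change of 0.13 ± 0.085 in KO1 (edgeR adjusted p = 0.264). Etv4 lies on chromosome 11 (101769747 to 101785310) and Etv5 on chromosome 16 (22381313 to 22439570). Of the 15 transcript models counted for Etv4, 12 were unnamed models of the provider.

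The remaining member, Spry4, a further Sprouty inhibitor, was the least abundant and passed no test. It had 4.63, 3.19 and 3.88 FPKM in KO1 and 3.98, 4.30 and 4.50 FPKM in KO2, against 4.51, 4.88 and 4.78 FPKM in Ctrl. KO1 replicate 1 reached the range of Ctrl, and the other 2 KO1 libraries lay below it. The highest KO2 library, at 4.50 FPKM, lay just under the lowest Ctrl library, at 4.51 FPKM, and in CPM, which are counts scaled to library size, these groups overlapped. The log2 fold change was -0.31 ± 0.12 in KO1 (SE, n = 3; edgeR adjusted p = 0.0826) and -0.07 ± 0.12 in KO2 (edgeR adjusted p = 0.644). Without KO1 replicate 1, the KO1 value was -0.45 and passed (edgeR adjusted p = 0.00969). Spry4 is on chromosome 18 (38586247 to 38601347).

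Counted over all 10 members, 1 was higher and 5 were lower in KO1, and 4 were higher and 4 lower in KO2, at an adjusted p under 0.05. Of the 13682 genes tested, 30.5% were called in KO1 (15.6% higher and 14.9% lower) and 54.1% in KO2 (24.6% higher and 29.5% lower). Thus 6 of 10 members were called in KO1 and 8 of 10 in KO2, both shares above those of all genes. With 10 members such a share is coarse, and they were chosen with earlier results of these data known. The share over all genes was not matched for expression level. A change of at least 2-fold was called for 1 member in KO1, Spry1, beside 7.92% of all tested genes, and for 0 members in KO2, beside 15.4%. The median log2 fold change of the members was -0.27 in KO1 and 0.02 in KO2, against 0.00 and -0.03 over all tested genes. The median size of the change, without its sign, was 0.34 in KO1 and 0.64 in KO2, against 0.21 and 0.35. Both lines were compared with the same Ctrl libraries, so their changes are not independent of each other.

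**Figure D2:**
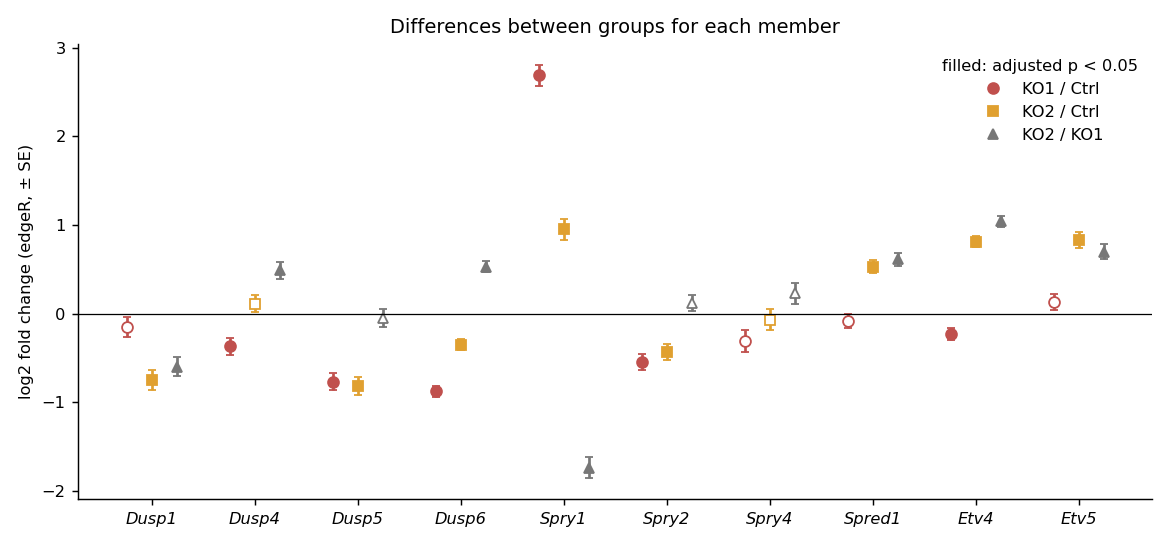
Log2 fold change (vertical axis) of each member in KO1 over Ctrl, KO2 over Ctrl and KO2 over KO1, from edgeR with SE bars; filled symbols passed an adjusted p under 0.05. Spry1 reaches 2.69 in KO1, and Etv4, Etv5 and Spred1 are raised in KO2 at 0.81, 0.83 and 0.53.

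Set directly against each other, the knockout lines differed in 7 of the 10 members, with 5 higher and 2 lower in KO2 than in KO1. Over all tested genes, 55.0% were called in this comparison (25.5% higher and 29.5% lower). Members with at least a 2-fold difference were Spry1 (log2 fold change -1.74 ± 0.12, SE, n = 3; edgeR adjusted p = 4.04e-07) and Etv4 (1.04 ± 0.065; edgeR adjusted p = 1.96e-07), beside 15.9% of all tested genes. Etv5 (0.70), Spred1 (0.61), Dusp6 (0.53) and Dusp4 (0.49) were also higher in KO2, and Dusp1 was lower (-0.60). For Spry2 the log2 difference was 0.12 ± 0.092 (SE; edgeR adjusted p = 0.294) and for Spry4 0.23 ± 0.12 (edgeR adjusted p = 0.13), neither of which passed. Spry4 passed without KO1 replicate 1 (0.38; edgeR adjusted p = 0.014).

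Within families, the mix of members differed between the groups. Of the FPKM summed over Spry1, Spry2 and Spry4, Spry1 made up 69.5% ± 2.86 in KO1 and 38.4% ± 2.57 in KO2, against 20.2% ± 1.48 in Ctrl (SD, n = 3). Spry2 gave 23.9% ± 2.45 in KO1 and 47.2% ± 2.08 in KO2, against 64.5% ± 1.86 in Ctrl. The leading Sprouty transcript was thus Spry1 in every KO1 library and Spry2 in every KO2 and Ctrl library. The summed level was 48.4 to 63.6 FPKM in KO1, and 28.9 to 30.6 FPKM in KO2 against 30.1 to 31.3 FPKM in Ctrl, so that in KO2 the mix changed while the sums overlapped.

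The 4 phosphatase genes together had 96.4 to 103.1 FPKM in KO1 and 118.1 to 128.0 FPKM in KO2, against 145.5 to 162.9 FPKM in Ctrl, without overlap. Dusp6 held 48.1% ± 1.80 of this sum in KO1 and 52.2% ± 1.13 in KO2, against 56.4% ± 1.53 in Ctrl (SD, n = 3). Etv4 and Etv5 together had 50.8 to 56.0 FPKM in KO1 and 91.2 to 95.7 FPKM in KO2, against 53.7 to 61.6 FPKM in Ctrl. Etv4 made up 72.1% ± 1.77 of that sum in KO1 and 76.3% ± 1.43 in KO2, against 76.9% ± 0.644 in Ctrl. All KO1 libraries lay below all Ctrl libraries in this share, and KO2 and Ctrl overlapped. These shares are descriptions and were not tested.

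**Figure D3:**
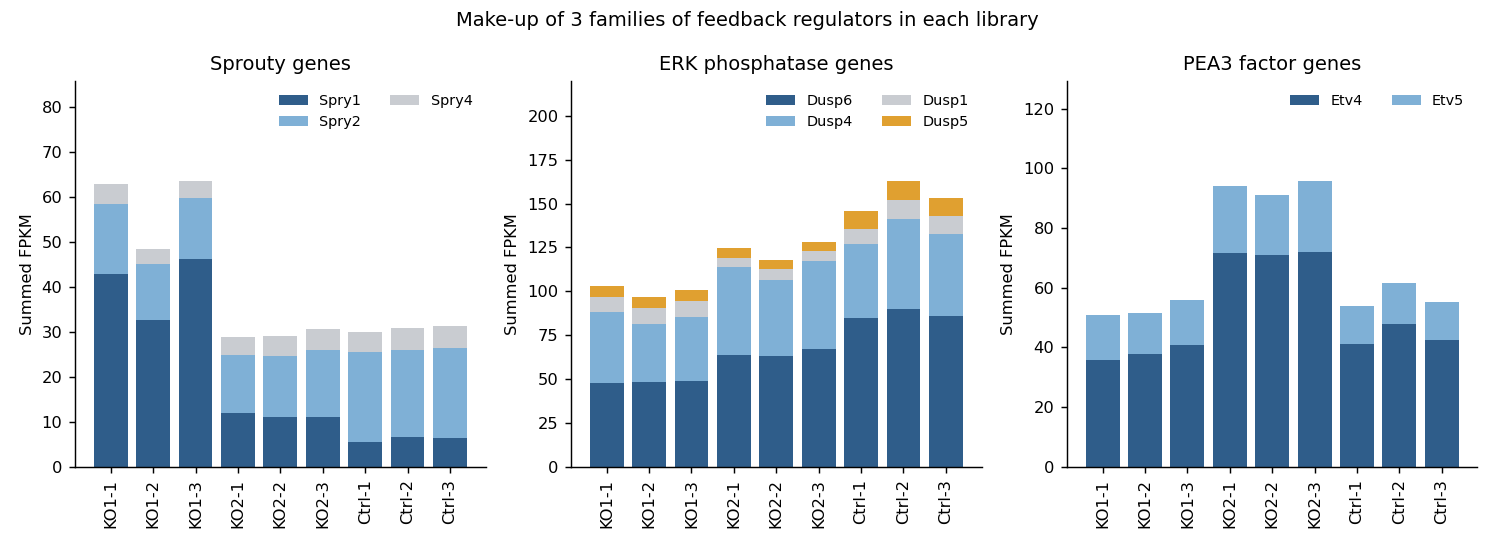
Summed FPKM (vertical axis, from 0) of the Sprouty, ERK phosphatase and PEA3 factor genes among the members, in each of the 9 libraries, stacked by gene. Spry1 fills most of the Sprouty bar in KO1, the phosphatase bars are tallest in Ctrl, and the PEA3 bars are tallest in KO2.

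By mean FPKM, Dusp6 led in Ctrl (86.7), without overlap, followed by Dusp4 (47.0), Etv4 (43.7) and Spred1 (40.6), each overlapping with the next. Spry2 (19.8) and Etv5 (13.1) came next without overlap, then Dusp5 (10.2) and Dusp1 (9.86), which overlapped, then Spry1 (6.20) and Spry4 (4.72). In KO1 Spry1 was second (40.6) behind Dusp6 (48.1), and it overlapped with Spred1 (39.2), Etv4 (38.04) and Dusp4 (36.8). In KO2 Etv4 was first (71.4), ahead of Dusp6 (64.5), Spred1 (55.7) and Dusp4 (48.0), with no overlap among these 4.

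A total of 185 other genes of MAPK signalling were grouped into 8 lists, of which 158 genes could be tested. In KO1, 29 were higher and 35 lower, 40.5% of those tested, beside 30.5% of all tested genes. In KO2, 37 were higher and 73 lower, 69.6% of those tested, beside 54.1% of all tested genes. The counts of each list below stand beside 15.6% of all tested genes called higher and 14.9% lower in KO1, and 24.6% higher and 29.5% lower in KO2. Their median log2 fold change was -0.02 in KO1 and -0.24 in KO2. The lists too were chosen with earlier results of these data known, and no test of a list as a whole was made.

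Among 31 tested transcripts known to be induced by ERK, 2 were higher and 10 lower in KO1, and 2 were higher and 17 lower in KO2. Egr1, an early zinc finger factor, had 8.00 FPKM in KO1 and 11.8 in KO2, against 21.6 in Ctrl (log2 fold changes -1.46 in KO1 and -0.80 in KO2). Ier3, an early gene of cell survival, fell by 0.87 in KO1 and fell by 1.97 in KO2 on the log2 scale, and the AP-1 gene Junb fell by 0.53 in KO1 and fell by 2.42 in KO2. The AP-1 gene Fos (-3.29), the cytokine gene Lif (-2.12) and Phlda1 (-1.38) fell in KO2; in KO1 Lif fell too (-0.70), while Fos (-0.57) and Phlda1 (-0.27) did not pass. The cyclin gene Ccnd1 stood at 298 FPKM in KO1 and 322 FPKM in KO2, against 299 FPKM in Ctrl, and passed as higher in KO2 alone (0.18). Fosl1, another AP-1 gene, passed in neither line (-0.10 and -0.09). Etv1, the third PEA3 factor, rose by 0.22 in KO2 and had -0.16 in KO1, which did not pass. With total count scaling, and with limma on FPKM, 0 of the 31 transcripts were called higher in KO2 and 22 lower. Total count scaling also moved the median log2 fold change of all tested genes in KO2 from -0.03 to -0.107. At an adjusted p under 0.01, 0 were higher and 16 lower. The rises of Ccnd1 and Etv1 in KO2 were thus not called under these settings. The shares of all tested genes called under them are not reported here. Phlda2 rose in KO1 (0.86).

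Of 13 tested growth factor ligands, 4 were higher and 4 lower in KO1, and 2 were higher and 10 lower in KO2. Areg, a ligand of the EGF receptor, had 29.3 FPKM in KO1 and 4.96 FPKM in KO2, against 86.2 FPKM in Ctrl (log2 fold changes -1.59 and -4.04). Nrg1, a ligand of the receptors Erbb3 and Erbb4, fell by 1.29 in KO1 and fell by 3.09 in KO2 on the log2 scale. Kitl, the ligand of Kit, rose in KO1 (1.63) and fell in KO2 (-0.63). Pdgfc, a ligand of the PDGF receptors, rose in KO1 (3.22), while no KO2 library listed it. Taking 3 counts over the 3 KO2 libraries as the limit of a 0, plus 3.42 counts that the listing minimum could hide, its level in KO2 was at least 32.8-fold lower. Of 18 receptor tyrosine kinases, 4 were higher and 5 lower in KO1, and 5 were higher and 9 lower in KO2. Fgfr2 rose in both lines (0.30 in KO1 and 1.10 in KO2), while Egfr (-0.39 and -0.38), Fgfr3 (-0.69 and -0.89) and Epha4 (-0.85 and -2.18) fell in both. Mertk rose in KO1 (1.63), and Ddr1, a collagen receptor, fell in KO2 (-1.06).

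Of 29 tested genes of the Ras-ERK cascade, 4 were higher and 4 lower in KO1, and 4 were higher and 15 lower in KO2. The share called in KO1, 27.6%, was below the 30.5% of all tested genes. Mapk3, which encodes an ERK kinase, just passed as lower in KO2 (-0.27, edgeR adjusted p = 0.0451). Map2k1, which encodes a MEK (-0.29), Mras (-1.68) and Rras (-0.94) also fell in KO2, and Rras rose in KO1 (0.29). Ksr2, a scaffold of the cascade, rose in KO1 (2.98) and less in KO2 (0.55). The adaptor gene Gab2 fell in both (-0.73 and -0.90). Gab1 just passed as higher in KO1 (0.57, edgeR adjusted p = 0.0466). It kept 3 counts in KO2, 0.581% of Ctrl (95% counting interval 0.120% to 1.71%). The KO1 count of 8 for this list was 5 without Ctrl replicate 1, 5 without Ctrl replicate 2 and 4 without KO1 replicate 3. Of 21 genes of the JNK and p38 cascades, 4 were higher and 4 lower in KO1, and 7 were higher and 6 lower in KO2. Mapkapk3, a kinase downstream of p38, fell by 3.66 on the log2 scale in KO2, as did Mapkapk2 (-0.86). The p38 gene Mapk13 fell in KO1 (-0.66) and rose in KO2 (0.89), Mapk12 rose in both (0.38 and 0.28), and the JNK scaffold gene Mapk8ip3 rose in KO1 (0.53).

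Other genes that brake the pathway also moved both ways. Of 12 other MAP kinase phosphatase and related genes, 3 were higher and 3 lower in KO1, and 5 were higher and 5 lower in KO2. Dusp9, which encodes a cytoplasmic ERK phosphatase close to Dusp6, had 5.84 FPKM in KO1 and 14.1 FPKM in KO2, against 7.15 FPKM in Ctrl (log2 fold changes -0.32 and 1.05). Its fall in KO1 just passed (edgeR adjusted p = 0.0449). Dusp2 fell in KO1 (-1.13) and rose in KO2 (0.79), Dusp14 rose in KO1 (0.77) and fell in KO2 (-0.61), Dusp8 fell in KO2 (-2.05), and Dusp22 fell in both (-2.25 and -1.47). Of 17 further brakes of receptors and Ras, 6 were higher and 5 lower in KO1, and 8 were higher and 5 lower in KO2. The KO1 total of 11 was 7 when KO2 was left out of the model, and 7 with the replicate number as a block. Errfi1, an inhibitor of the EGF receptor, had 72.9 FPKM in KO1 and 18.4 FPKM in KO2, against 94.7 FPKM in Ctrl (-0.41 and -2.29). Il17rd, an inhibitor of FGF signalling, rose in KO1 (1.26) and fell in KO2 (-3.88). Spred3, a paralogue of Spred1, fell in both lines (-0.57 and -0.31), Dok1 rose in both (0.28 and 1.34), and Lrig1 rose in KO1 (0.74).

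A last list held ETS factors, repressors and cofactors, and 17 of its genes were tested. By edgeR, 2 were higher and 0 lower in KO1, and 4 were higher and 6 lower in KO2. DESeq2 called 3 higher and 1 lower in KO1, and without KO1 replicate 1 edgeR called 4 higher and 1 lower. Cic, which encodes a repressor of Etv4, Etv5 and other ERK targets, had 26.7 FPKM in KO1 and 30.3 FPKM in KO2, against 25.8 FPKM in Ctrl. Its log2 fold change was 0.00 in KO1, and 0.27 in KO2, where it just passed (edgeR adjusted p = 0.0493). Erf, an ETS repressor that ERK moves out of the nucleus, passed in neither line (-0.34 and -0.24). The ETS factor gene Gabpa rose in KO2 (0.69), Trib1 fell in KO2 (-0.75), and Trib2 rose in KO1 (0.26). Ehf, an epithelial ETS factor, rose in KO1 (2.70) and kept 1 count in KO2, 0.302% of Ctrl (95% counting interval 0.00762% to 1.69%).

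**Figure D4:**
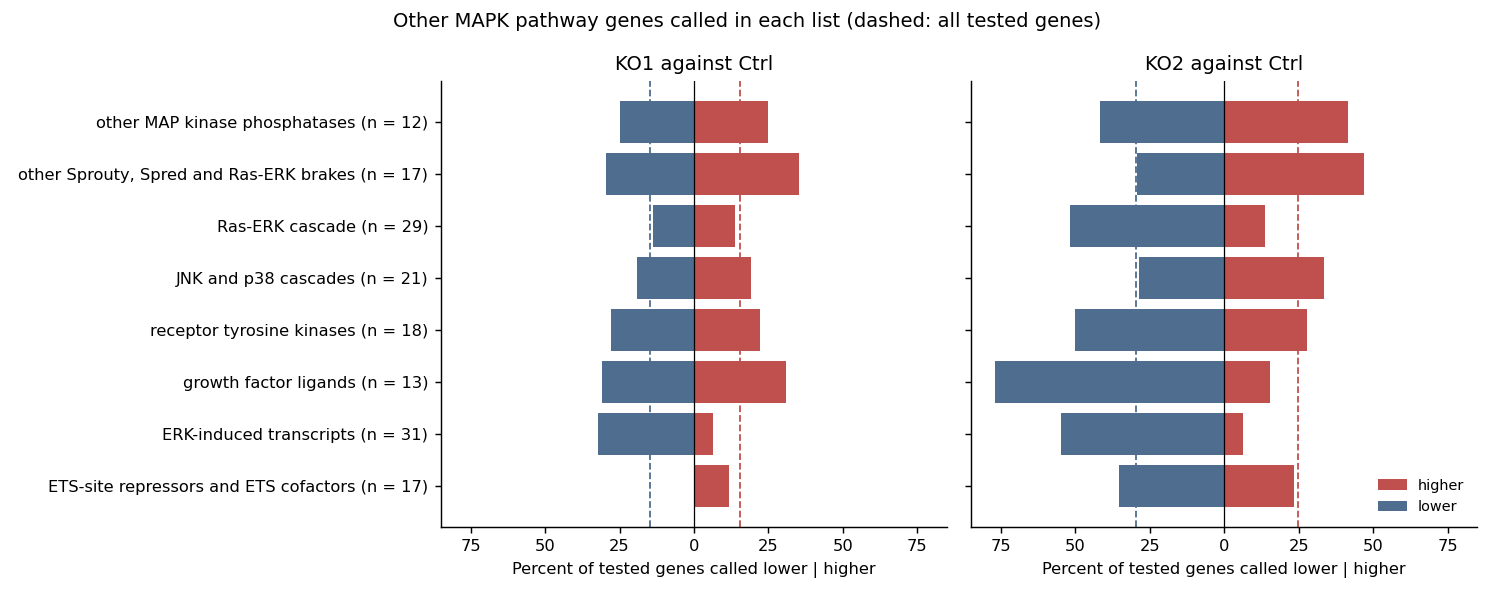
Percent of the tested genes of each list (rows) called lower (left of 0) or higher (right of 0) in KO1 and KO2 against Ctrl at an adjusted p under 0.05; dashed lines give the percent over all 13682 tested genes. Of the ERK-induced transcripts, 17 of 31 are lower and 2 higher in KO2.

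Promoter windows were matched for 7 of the 10 members; Dusp4, Spry4 and Etv4 had no entry, and Etv5 had 2 windows. Both strands were searched for the octamers TGAATGAA and TGAATGGA of the repressor CIC, the ETS site CCGGAA, the CRE TGACGTCA, the shorter CRE core TGACG, which a full CRE contains on both strands, and the AP-1 site TGANTCA. Dusp1 held 1 full CRE, 143 to 136 bases before the start, and a separate core 191 to 187 bases before it. Spry2 held 1 ETS site, 34 to 39 bases after the start, and Dusp5 1 CRE core, 55 to 51 bases before it. The windows of Dusp6, Spry1, Spred1 and Etv5 held none of these. Of all 32851 windows, 2.5% held a CIC octamer, 14.9% the ETS site, 1.8% the full CRE, 20.8% the CRE core and 7.8% the AP-1 site. GC content ran from 57.3% (Dusp6) to 74.0% (1 window of Etv5).

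Spry1 was the member with at least a 2-fold change against Ctrl, and its profile was set beside those of 10290 other genes at 5 CPM or more. The measure was the root mean square difference of log2 CPM, relative to the Ctrl mean, over the 9 libraries. The nearest were Plet1, a gene of a surface protein first described in placenta (difference 0.28), and Dmp1, a gene of a matrix phosphoprotein (0.35), and 5 genes in all lay within 0.5. Plet1 had 15.0 FPKM in KO1 and 3.51 FPKM in KO2, against 2.50 FPKM in Ctrl. Dmp1 had 3.87 FPKM in KO1 and 1.97 FPKM in KO2, against 0.79 FPKM in Ctrl.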

How the data were processed

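RNA from 9 libraries of 4T1-TGL cells was sequenced on BGISEQ-500. HISAT and RSEM and the builds mm10 and GRCm38 are named in the submitters' processing notes, without versions. Per the file headers, the deposited tables give an expected count per gene, which is not normalised, and FPKM, scaled by the authors to length and library size. The lowest FPKM listed was 0.01, and a gene not listed was taken as 0.

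Expected counts were rounded to whole numbers and tested with edgeR 4.0.16 (R 4.3.3) using filterByExpr, TMM scaling and a robust quasi-likelihood fit of all 9 libraries with 1 coefficient per group, which left 13682 genes. The Benjamini-Hochberg adjustment ran over all of these, with calls at an adjusted p under 0.05. An SE was back-calculated from the log2 fold change and its F statistic and is approximate. FPKM describes levels. Groups and replicate numbers come from the sample titles. Positions and promoters are from RefSeq, and overlapping genes from GENCODE M21, both GRCm38.

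Replicates of a group differed by more than counting noise (chi-square per gene 8 to 58.09). Libraries with the same number in different groups had correlations of their deviations from -0.34 to 0.05 across genes. Those with unlike numbers had -0.17 to 0.34. Libraries were therefore not paired by number, and what the higher correlations reflect was not tested. Counting intervals and floors cover counting error only. Alternatives used DESeq2 1.42.0, limma 3.58.1 (also on log2(FPKM + 1) and log2(FPKM + 0.1)), other scalings and filters, and fewer libraries. The steps were run on simulated counts with changes in few genes of KO1 alone and the same spread for every gene. That setting differs from these data, where many more genes were called, so it does not give the rate of false calls here.

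The members and lists were chosen with earlier results of these data known. Genes named from the lists were, per list and line, the 3 called genes with the largest change at 1 CPM or more, plus Egr1, Fos, Fosl1, Ccnd1, Phlda1, Etv1, Cic, Erf, Egfr, Map2k1 and Mapk3; some genes that this rule names are not reported here.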

Additional observations from a re-analysis of the deposited data

Results flagged for a closer look

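For 7 of the 10 members the change against Ctrl differed between the knockout lines, by the direct edgeR test of KO2 against KO1, in which the shared Ctrl libraries cancel. Over all tested genes, 55.0% were called in the same test. The log2 change in KO2 minus that in KO1 was -1.74 for Spry1, -0.60 for Dusp1, 0.49 for Dusp4, 0.53 for Dusp6, 0.61 for Spred1, 0.70 for Etv5 and 1.04 for Etv4. For Etv4 the lines lay on opposite sides of Ctrl (0.81 in KO2 and -0.23 in KO1). Malat1 was also higher in KO2 than in KO1 (log2 fold change 5.21), and its part in these differences was not tested.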

How the results depend on the processing

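The counts of members called were 5 to 7 in KO1, 8 in KO2 and 7 to 8 between the lines when each library was left out in turn, beside 6, 8 and 7. Counting only changes of at least 2-fold left 1, 0 and 2 members. Of the 158 tested pathway genes it left 13, 34 and 41 in place of 64, 110 and 115. Over all tested genes, 7.92%, 15.4% and 15.9% were called with at least a 2-fold change. At an adjusted p under 0.01, 40 pathway genes were called in KO1. With the replicate number as a block, 6, 8 and 7 members and 50, 100 and 102 pathway genes were called, and no call of a member changed. The shares of all tested genes called at that stricter threshold and with the block are not reported here. Of 570 alternative values of the members' log2 fold changes, 563 kept direction and side of the threshold and none reversed. The exceptions were Etv4 in KO1, which missed the threshold under 5 alternatives (-0.18 to -0.24), and Spry4, which passed without KO1 replicate 1; the cause was not tested. The Etv4 call was also lost with limma on FPKM (adjusted p = 0.0649 and 0.0658) and with Ctrl and KO1 alone in the fit (edgeR adjusted p = 0.056). Scaling by total counts moved the median log2 fold change over all genes from -0.021 to -0.127 between the lines. The members with the fewest counts, Dusp5 and Dusp1, rest on 177 to 417 and 314 to 739 expected counts per library.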
